A study of Mus musculus with 15 samples.

Results

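The miRNAs named miR-297, miR-466, miR-467 and miR-669 are a family of near-identical mouse small RNAs, many of them made from repeated hairpins in the polycomb-type gene Sfmbt2. They were chosen by name alone: every mouse miRNA on the array with one of these 4 names, whatever its letter, copy or arm, which gave 61 of the 1122 mouse miRNAs (3 of miR-297, 23 of miR-466, 12 of miR-467 and 23 of miR-669). RefSeq gene positions bore out the location only in part. Of the 61 members, 50 had all their loci inside Sfmbt2, 8 had loci only elsewhere in the genome (miR-466i-3p, miR-466i-5p, miR-466j, miR-466k, miR-466q, miR-467f, miR-467g and miR-669n), and 3 had both kinds (miR-297a-3p, miR-466f-3p and miR-466f-5p).

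A miRNA hairpin is cut into a duplex whose strands are the 5p and 3p arms, and the arm loaded into an Argonaute protein pairs with target mRNAs mainly through its seed, bases 2 to 8 from the 5′ end. Sfmbt2 is imprinted and expressed from the paternal allele in the early mouse embryo and placenta, and a large block of these hairpins lies in one of its introns. The family is known for expansion in rodents and for simple repeats: many 3p arms are runs of CA-type repeats and many 5p arms are rich in UG.

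Total RNA came from mouse epiblast stem cells (EpiSC), which are primed pluripotent cells, here derived from mice carrying a GFP reporter of Pitx3, a gene of dopaminergic neurons. All 5 groups were such cells under differentiation: cells at day 5 before morphogens, cells given SHH and FGF8 from day 5 and collected at day 9 or day 14 (treated), and cells left without these morphogens and collected at the same 2 days (control). Each group had 3 single-colour arrays. The labels do not say whether the 3 were separate cultures, so p-values measure only the spread between these samples, nor how many cell lines were used. In bulk RNA, fewer cells of a type and less RNA per cell cannot be told apart.

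The arrays lay on 2 slides, each scanned once. Slide 1 held day 5, treated day 9 and treated day 14 replicates 1 and 2; slide 2 held treated day 14 replicate 3 and all 6 control arrays. Treated against control at day 9, and control day 9 against day 5, cannot be told apart from the slide except through the split treated day 14 group, while treated day 9 against day 5 lay within slide 1 and control day 14 against day 9 within slide 2. The labelling spike ran from 2.97 to 3.11 (log10 signal) on slide 1 and from 2.71 to 2.86 on slide 2. Per array, 238 to 333 mouse miRNAs and 19 to 39 members were above background, and the 75th percentile that served as the scale was 149 to 337 units of intensity. Of the cell markers, the 5 primed pluripotency miRNAs had a summed scaled signal of 2.02 to 3.00 at day 5 and 0.303 to 0.597 in all later arrays, and the 5 neural miRNAs 3.97 to 4.28 at day 5, 7.74 to 8.05 and 13.7 to 15.3 in treated and control cells at day 9, and 15 to 17.7 and 24.1 to 28.6 at day 14. All 3 striated muscle, 3 blood and endothelium and 5 epithelium markers were not well above background on any array.

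Mature sequences of 7 members were in the RefSeq table used here, all from loci outside Sfmbt2. The 5 of them that were tested are printed to show the 2 kinds of repeat. The other members had no sequence there, and a link between repeat and signal was not tested. Positions are RefSeq's on GRCm38.p6, and capitals mark the seed. No seed was shared with another array miRNA that had a RefSeq sequence. Most members had none, so seeds could not be compared over the family.
miR-466i-3p: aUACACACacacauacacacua
miR-466q: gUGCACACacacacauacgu
miR-467f: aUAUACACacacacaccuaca
miR-466j: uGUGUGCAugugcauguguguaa
miR-669n: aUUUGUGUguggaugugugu
The first of these lies at chr13:17747552-17747573 (+) within the span of Cdk13, miR-466q at chr3:28419988-28420007 (+) within Tnik, and miR-467f at chr11:69635419-69635439 (-) within Fxr2. miR-466j lies at chr10:60960802-60960824 (+) in no listed gene, and miR-669n at chr3:115979905-115979924 (+) within Slc30a7; the table gives gene spans, not exons. The letters ACACAC, read on the miRNA strand only, stood in 4 of the 7 members with a sequence and in 7 of 874 other array miRNAs (0.801%), and UGUGUG in 3 of the 7 and in 13 of 874 others (1.49%). The best-known pair outside the family with both repeats on 1 hairpin is miR-574, shown for comparison:
miR-574-5p: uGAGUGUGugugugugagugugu
miR-574-3p: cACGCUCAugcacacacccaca
They lie at chr5:64970328-64970350 (+) and chr5:64970364-64970385 (+), within the spans of Fam114a1 and Tlr6. Array probes for near-identical sequences can share signal, so the members are not counted here as separate molecules, and how much signal they share was not tested.

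Signal was reported as the log2 of the brightest probe's intensity divided by the array's 75th percentile, with a floor at -4.27, below which values have no order. A miRNA was above background on an array when at least 50% of the spots of any of its probes carried the scanner's flag. On this rule 22 members were never above background, 39 were on at least 1 array and 15 on all 15. On at least 1 array, 11 of 12 miR-467 members were above background, against 2 of 3 for miR-297, 12 of 23 for miR-466 and 14 of 23 for miR-669. On all 15 arrays it was 3 of 12 for miR-467, 0 of 3 for miR-297, 7 of 23 for miR-466 and 5 of 23 for miR-669. Testing needed at least 1 group whose 3 arrays were all above background, which kept 31 (2 of miR-297, 11 of miR-466, 7 of miR-467 and 11 of miR-669; 11 of the 3p arm, 15 of the 5p arm and 5 with no arm in the name). The filter favours a difference in members that passed only through the group where they were high, so counts below describe the 31 and not the family.

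Most members were dim. The mean intensity of the 31 ran from 11.7 to 449 units with a median of 28.7. The brightest was miR-466i-5p, from a locus outside Sfmbt2. Its scaled signal was 0.73, 1.14 and 1.64 at day 5, 0.73, 0.84 and 0.57 in treated cells and 0.67, 0.17 and 0.51 in control cells at day 9, and 0.94, 1.02 and 0.88 in treated and 0.61, 1.15 and 0.52 in control cells at day 14. These ranges overlapped between treated and control cells on both days, and limma called neither difference, of 0.26 ± 0.21 (SE) on day 9 or 0.18 ± 0.21 on day 14 (adjusted p = 0.31 and 0.51). The second brightest was miR-669f-3p, the brightest member from inside Sfmbt2, followed by miR-669n, miR-466h-3p, miR-466f-3p and miR-467a-3p with means over the 15 arrays of -0.79, -1.50, -2.08, -2.40 and -2.51.

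Treated against control cells asked what the morphogens did. At day 9, 14 of 31 members were higher in treated cells and 0 lower (adjusted p under 0.05 in limma); of all 306 tested miRNAs, 40.5% were called higher and 15% lower. The members' median difference was 0.62, against 0.25 over all 306. At day 14, 11 were higher and 0 lower, beside 39.2% higher and 14.7% lower over all, with medians of 0.45 and 0.22. The members called higher, 14 and 11 of 31, were thus about as frequent as among all tested miRNAs. In limma at an unadjusted p under 0.05, 14 of 31 members passed at day 9 and 13 at day 14, beside 181 and 179 of all 306. Of the members called higher, miR-297a-3p, miR-297c-5p, miR-466c-5p, miR-467c-5p and miR-669a-3-3p had all 3 arrays above background in treated cells only. They passed the filter where they were high, so their calls are not evidence of a difference. Among members above background on all arrays, 5 of 15 were called higher on each day and 0 lower. Of 192 such miRNAs, 75 and 88 were higher and 30 and 27 lower.

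miR-669f-3p, the brightest member with its loci in Sfmbt2, lay at -0.13, -0.15 and -0.03 in treated and -0.95, -0.94 and -0.99 in control cells at day 9, and at -0.60, -0.56 and -0.75 in treated and -1.82, -1.66 and -1.62 in control cells at day 14. The groups did not overlap on either day. The treated mean was 1.81 times the control mean at day 9 (0.86 ± 0.09, adjusted p = 3.8e-06 in limma) and 2.09 times at day 14 (1.07 ± 0.09, adjusted p = 4.8e-07).

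Of miR-467, 6 of 7 tested members were called higher at day 9 (median 0.92) and 5 of 7 at day 14 (median 1.02). miR-467b-5p was at -1.89, -2.05 and -1.97 in treated and -2.91, -2.84 and -2.92 in control cells at day 9, then at -2.22, -2.29 and -2.23 against -3.48, -3.22 and -3.22. All 3 treated arrays lay above all 3 control arrays each day, by 0.92 ± 0.07 (adjusted p = 2.1e-07 in limma) and 1.06 ± 0.07 (adjusted p = 6.8e-08). miR-467a-5p stood at -2.60, -2.55 and -2.56 against -3.51, -3.57 and -3.56 at day 9, and at -3.06, -3.10 and -3.16 against -4.27, -4.27 and -4.21 at day 14, where 2 of the control arrays were at the floor. Its differences were 0.98 ± 0.05 and 1.14 ± 0.05 (adjusted p = 5.2e-09 and 1.7e-09). The opposite arm, miR-467a-3p, differed by 0.79 ± 0.19 and 1.01 ± 0.19 (adjusted p = 0.0026 and 4.6e-04), miR-467e-5p by 0.97 ± 0.14 and 1.02 ± 0.14, and miR-467d-3p by 0.93 ± 0.24 and 1.04 ± 0.24. The exception at both days was miR-467f, the CA-repeat member whose locus is in Fxr2 (0.67 ± 0.35 and 0.45 ± 0.35, adjusted p = 0.12 and 0.33 in limma). Its day 5 replicates, at -1.79, -3.73 and -2.79, enter that SE. In a fit without the day 5 arrays it was called at day 9 (0.67 ± 0.19, adjusted p = 0.0096 in limma). At day 14 it was not (0.45 ± 0.19, adjusted p = 0.062 in limma). miR-467c-5p was called at day 9 (0.53 ± 0.13) and not at day 14 (0.32 ± 0.13).

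miR-466 had more tested members and fewer calls, 2 of 11 on each day, with medians of 0.62 and 0.38. They were miR-466c-5p (0.78 ± 0.16 and 0.48 ± 0.16) and miR-466b-3p. The latter was at -2.35, -2.28 and -2.31 in treated and -3.05, -2.98 and -3.11 in control cells at day 9, and at -3.02, -2.94 and -3.13 against -4.27, -4.27 and -4.19 at day 14. Only 1 of its 3 control arrays at day 14 was above background. The difference was 0.73 ± 0.06 at day 9 and 1.21 ± 0.06 at day 14 (adjusted p = 5.7e-07 and 4.1e-09 in limma). miR-669 had 4 of 11 called at day 9 (miR-669f-3p, miR-669a-3-3p, miR-669b-5p and miR-669l-5p) and 3 of 11 at day 14, the same without miR-669a-3-3p. Both tested members of miR-297 were called at day 9 and 1 at day 14. miR-297c-5p was above background on 3 of 3 treated arrays and 0 of 3 control arrays on both days, and was at least 1.38-fold higher in treated cells at day 9 and at least 1.06-fold at day 14. Such bounds set the treated mean against the higher of the control array's own value and its lowest signal counted as above background.

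**Figure D1:**
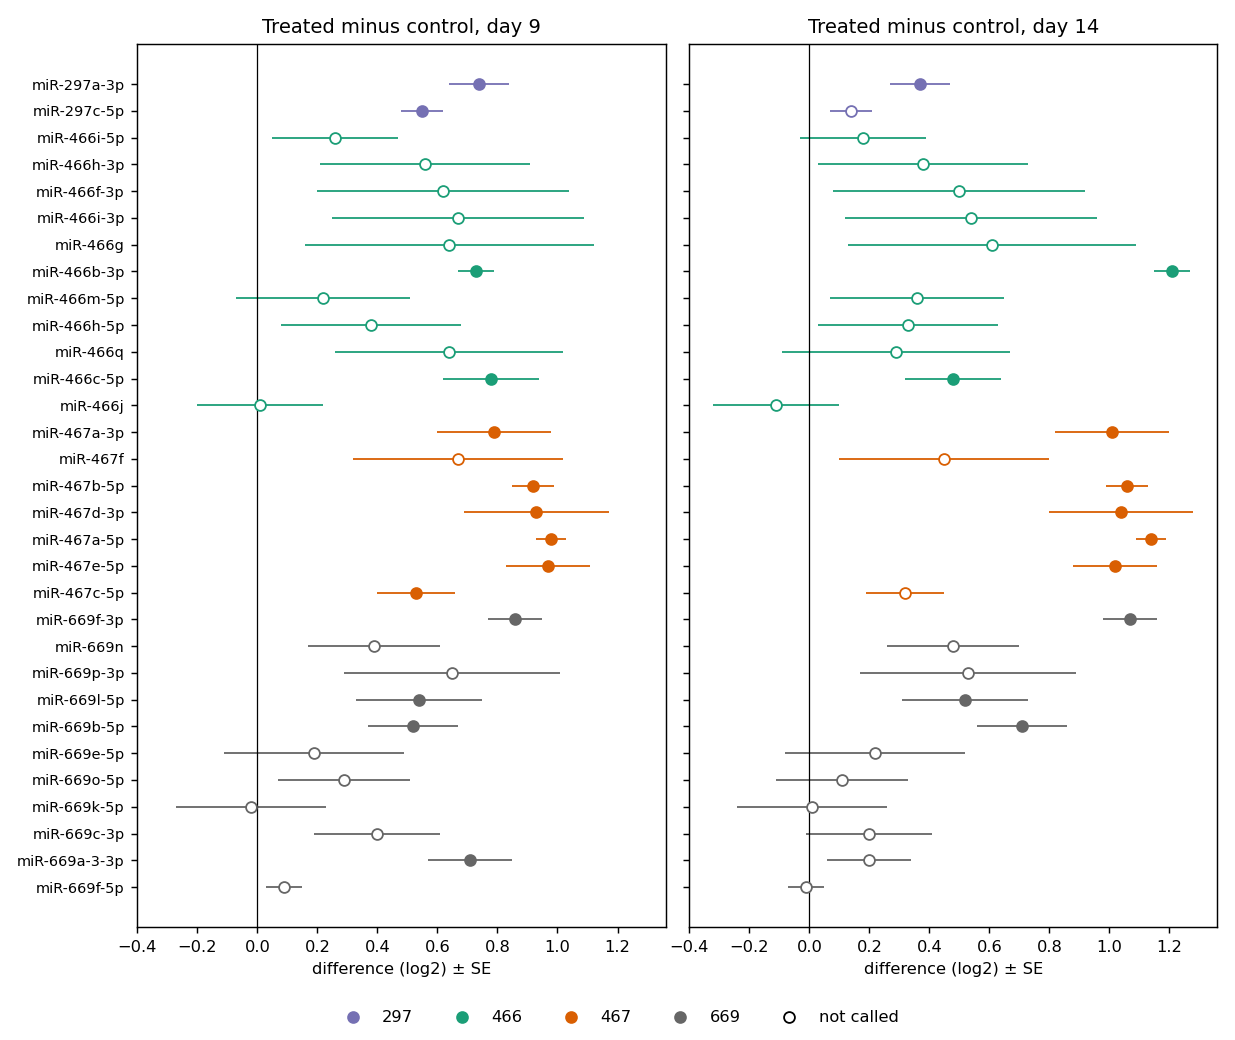
Treated minus control difference (log2, with SE from limma) of the 31 tested members at day 9 (left) and day 14 (right), ordered by name and brightness; filled points were called and open points were not. The called points of miR-467 lie between 0.53 and 0.98 at day 9, and the wide intervals belong mostly to miR-466 and miR-669.

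By location, 13 of 23 members with loci only inside Sfmbt2 were called higher at day 9 and 10 of 23 at day 14, and 0 of 6 with loci only outside on either day (1 of 6 at an unadjusted p under 0.05 at day 14). Of all 306 tested miRNAs, 40.5% and 39.2% were called higher. The inside calls include the members above that passed the filter only in treated cells. In a fit without the day 5 arrays, the outside members miR-466i-3p and miR-467f were called higher at day 9. At day 14 miR-466i-3p was, and the other outside members were called on neither day. The medians were closer than the counts: 0.56 and 0.52 at day 9, 0.48 and 0.37 at day 14. No test set one location against the other.

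The number of calls changed with slide as a term and with the scale. With slide as a fixed block, which uses the split treated day 14 group, 7 members stayed called at each day, and all of them were among the calls above. Of all 306 miRNAs, 56 were then called higher and 19 lower at day 9, and 73 and 34 at day 14. The block raised the SE, so a lost call is not a measure of how much of a difference came with the slide. At day 9 these were miR-297a-3p, miR-297c-5p, miR-466b-3p, miR-467a-5p, miR-467b-5p, miR-467e-5p and miR-669f-3p, of which miR-669f-3p differed by 0.69 ± 0.16 (adjusted p = 0.0068 in limma) and miR-467b-5p by 0.95 ± 0.14 (adjusted p = 3e-04). Of the calls lost at day 9, miR-467a-3p differed by 0.78 ± 0.35 with the block and 0.79 ± 0.19 without (adjusted p = 0.14 with it), miR-466c-5p by 0.68 and 0.78 (adjusted p = 0.12), and miR-669b-5p by 0.48 and 0.52 (adjusted p = 0.24). The differences of miR-467d-3p (0.69 from 0.93, adjusted p = 0.31), miR-669a-3-3p (0.45 from 0.71, adjusted p = 0.24), miR-467c-5p (0.40 from 0.53, adjusted p = 0.28) and miR-669l-5p (0.42 from 0.54, adjusted p = 0.53) moved more. At day 14 the lost calls were miR-297a-3p (0.22 from 0.37, adjusted p = 0.22), miR-466c-5p (0.42 from 0.48, adjusted p = 0.18), miR-467d-3p (0.89 from 1.04, adjusted p = 0.067) and miR-669l-5p (0.44 from 0.52, adjusted p = 0.3). Within slide 2, where 1 treated array met 3 control arrays and was assumed to vary like the other groups, 9 members were called higher at day 14 and 0 lower, beside 77 and 29 of all 306. Scaling to the 75th percentile of all mouse probes moved the median of all 306 miRNAs at day 9 from 0.25 to -0.25 and left 5 members called at day 9 and 7 at day 14, all higher, beside 41 and 37 of all 306 called higher and 121 and 77 called lower; with it miR-669b-5p and miR-669l-5p turned to -0.07 and -0.05 at day 9. The members' median minus that of all tested miRNAs at day 9 was 0.37 as reported, 0.35 with median scaling, 0.30 with the all-probe percentile, 0.23 with quantile normalization, 0.17 with slide as a fixed block, 0.15 with no filter, 0.11 with normexp and 0 with the floor 4 times higher.

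Lists of other cell types held miRNAs that also moved with treatment. Of the 4 endoderm markers miR-375-3p alone was above background, and the summed scaled signal of the list was 0.805 to 0.871 in treated cells at day 9 and 0.536 to 0.613 at day 14, against 0.207 in every day 5 and control array, where all 4 were at the floor. Of the 4 mesenchyme markers miR-199a-3p alone was above background, in treated cells only (sums of 0.223 to 0.247 against 0.207). Their part in the members' differences was not tested. The 4 viral miRNAs of the array's 57 that were above background on all 15 arrays, which serve as signal from probes not designed for mouse miRNAs, had median treated-control differences of 0.54 at day 9 and 0.17 at day 14. They ran from -0.17 to 0.85 at day 9 and from 0.01 to 1 at day 14, with mcmv-miR-m88-1 the highest on both days.

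The arrays of day 5 and of treated day 9 all lay on slide 1. From day 5 to day 9 in treated cells, 10 of 31 members rose and 0 fell in the fit to all groups. The background was 37.6% higher and 21.2% lower over the 306 miRNAs, with medians of 0.43 for members and 0.10 for all. Of the 10, 5 were miR-467 members. Also among the 10 were miR-297a-3p, miR-297c-5p and miR-669a-3-3p, which had all 3 arrays above background in treated cells only. They passed the filter where they were high, so their rises are not evidence of a difference. miR-467b-5p was at -2.76, -2.76 and -2.75 at day 5 and rose by 0.79 ± 0.07 to its treated day 9 values above (adjusted p = 5.7e-07 in limma), and miR-467a-5p rose by 0.73 ± 0.05 from -3.26, -3.32 and -3.32 (adjusted p = 5.5e-08). The day 5 arrays of both lay within 0.06 of each other and below every treated day 9 array. The other large increases were in miR-467a-3p and miR-467d-3p (both 0.97, SE 0.19 and 0.24) and miR-467e-5p (0.95 ± 0.14). miR-669f-3p rose by 0.44 ± 0.09 and miR-466b-3p by 0.33 ± 0.06. Slide as a block left the count at 10, but with both groups on slide 1 it cannot alter these differences. In a fit to slide 1 alone the call of miR-669a-3-3p was lost (0.43, adjusted p = 0.076 in limma).

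In control cells the same interval held 0 increases and 7 decreases, beside a background of 23.9% higher and 35% lower and medians of -0.25 for members and -0.09 for all. The largest decreases were in miR-466i-5p (-0.72 ± 0.21), miR-467c-5p (-0.56 ± 0.13), miR-466c-5p (-0.55 ± 0.16), miR-669f-3p (-0.42 ± 0.09) and miR-466b-3p (-0.41 ± 0.06). The other 2 were miR-669b-5p and miR-467a-5p. All 7 calls were lost with slide as a fixed block, where 0 of 31 members and 99 of all 306 miRNAs were called. The differences were then -0.63 for miR-466i-5p (adjusted p = 0.26 in limma), -0.46 for miR-466c-5p (0.26), -0.43 for miR-467c-5p (0.21), -0.35 for miR-669b-5p (0.38), -0.25 for miR-669f-3p (0.26) and miR-466b-3p (0.083), and -0.16 for miR-467a-5p (0.21), with larger SE throughout. With the all-probe percentile the median was 0.04 and 1 member was called, higher. With that percentile miR-467a-5p turned to 0.12.

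From day 9 to day 14 the calls among members were all decreases, in treated and in control cells. In treated cells 0 rose and 10 fell, beside 35.6% higher and 30.7% lower among all miRNAs, and the medians were -0.23 and 0.01. In control cells, whose arrays all lay on slide 2, 0 rose and 7 fell in the fit to all groups. Among all miRNAs 31.4% were higher and 22.9% lower, and the medians of members and of all were -0.01 and 0.06. Falling in both were miR-466b-3p (-0.72 ± 0.06 in treated and -1.20 ± 0.06 in control cells), miR-467a-3p (-0.58 ± 0.19 and -0.80 ± 0.19), miR-467d-3p (-0.60 ± 0.24 and -0.71 ± 0.24), miR-467a-5p (-0.54 ± 0.05 and -0.70 ± 0.05), miR-669f-3p (-0.53 ± 0.09 and -0.74 ± 0.09) and miR-467b-5p (-0.28 ± 0.07 and -0.41 ± 0.07). For miR-466b-3p and miR-467a-5p the control day 14 arrays sat at or near the floor, so those control values are differences of floored means. In control cells the call of miR-669b-5p was lost in a fit to slide 2 alone (-0.44). In treated cells, whose day 14 arrays lay on both slides, the calls of miR-467d-3p (-0.52, adjusted p = 0.12 in limma) and miR-466c-5p (-0.38, adjusted p = 0.088) were lost with slide as a fixed block. Within slide 1, where 2 treated day 14 arrays met 3 of day 9, 6 members were called lower, beside 77 of all 306. Among them were 5 of the 10, miR-297c-5p, miR-466b-3p, miR-467a-5p, miR-467b-5p and miR-669f-3p, and not miR-467a-3p (-0.58, adjusted p = 0.087) or miR-467d-3p (-0.52, adjusted p = 0.2). miR-669a-3-3p fell in treated cells (-0.57 ± 0.14) and was above background on 0 of 3 control arrays at day 14. It passed the filter only through treated day 9, where it was high, so its fall is not evidence of a change. miR-467e-5p was not called in treated cells, at -2.98, -2.92 and -3.01 and then -2.90, -2.98 and -3.07.

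The change of the treatment effect from day 9 to day 14 was called for 2 members, 1 in each direction, beside 16.7% higher and 16% lower among all. miR-466b-3p had the larger effect at day 14 (by 0.48 ± 0.09, adjusted p = 0.0014 in limma), and miR-297c-5p the smaller (-0.41). All 6 control values of miR-297c-5p were at the floor, so its value is the fitted fall in treated cells and its change in control cells was not measured. The sign turned with normexp for miR-466b-3p (-0.11) and with scaling to the total gene signal for miR-297c-5p (0.58).

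**Figure D2:**
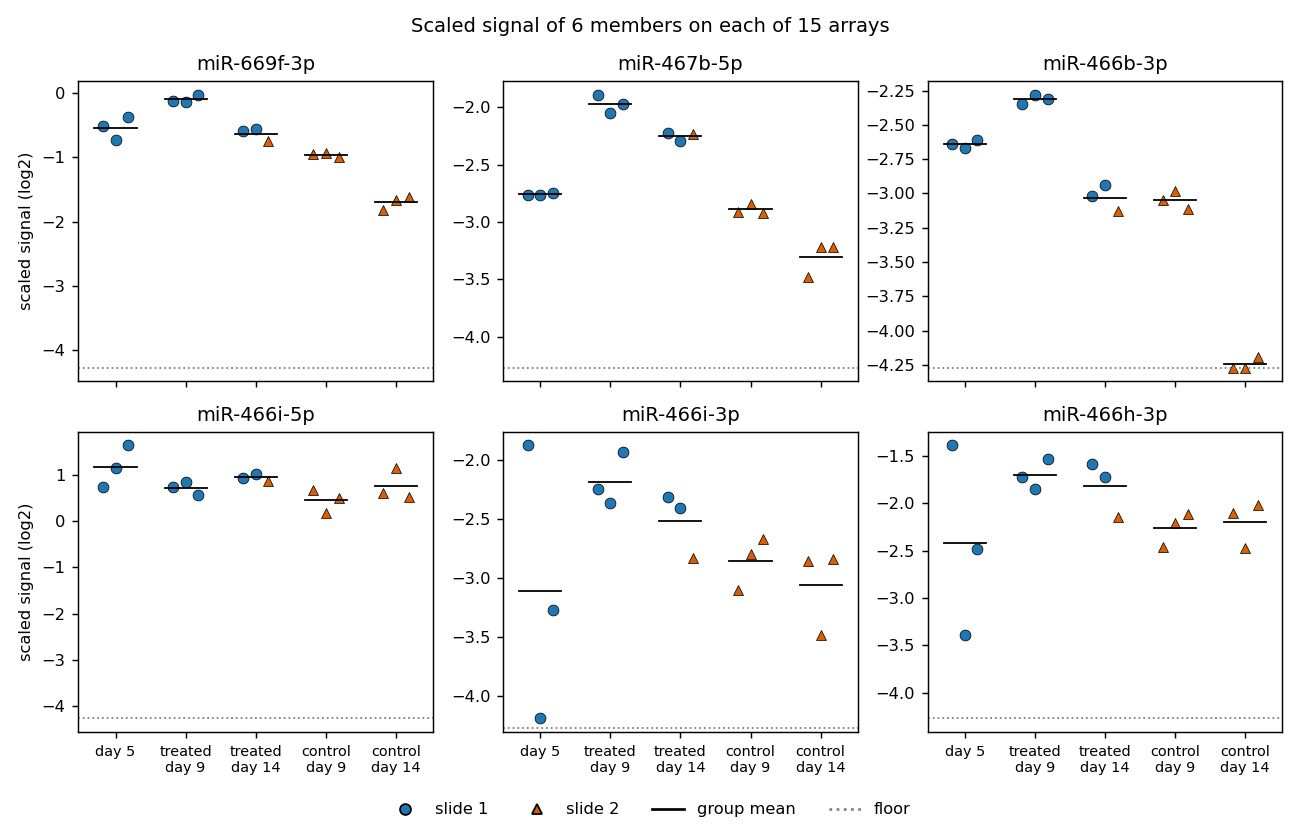
Scaled signal (log2) of 6 members on each array, by group; circles are slide 1, triangles slide 2, bars group means and the dotted line the floor of -4.27. miR-669f-3p, miR-467b-5p and miR-466b-3p have tight replicates, whereas the day 5 arrays of miR-466i-3p run from -4.19 to -1.88 and those of miR-466h-3p from -3.39 to -1.39.

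Replicates of many members lay far apart. At day 5, 9 of the 31 members had an SD over 0.5, against 16 of all 306 tested miRNAs, and at control day 14 it was 8 against 11. Most of the day 5 spread came from replicate 1. miR-466h-3p was at -1.39, -3.39 and -2.48 in the day 5 replicates 1, 2 and 3, miR-466f-3p at -1.54, -3.88 and -3.16, and miR-466i-3p at -1.88, -4.19 and -3.27. In each of them replicate 1 was above all 12 later arrays. miR-466g was at -1.86 in replicate 1 and at -4.27 and -4.07 in the others, and miR-466q, miR-467f and miR-669p-3p had the same order of replicates.

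Many 3p and 5p members had replicate gaps of opposite sign. Replicate 1 minus the mean of replicates 2 and 3 at day 5 was 0 or above in all 11 tested 3p members (0 to 1.98, median 0.88), and ran from -0.69 to 0.14 in the 15 tested 5p members (median -0.33), 12 of which were below 0. At control day 14 the order was turned: replicate 2 minus the mean of the others had a median of -0.22 in 3p and 0.59 in 5p members, with 13 of 15 5p members above 0 and 1 of 11 3p members. Over all 306 miRNAs the medians of these gaps were 0.00 and 0.06. miR-466i shows it on 1 hairpin: its 3p arm had gaps of 1.85 and -0.63 and its 5p arm of -0.66 and 0.59. Of the 10 tested miRNAs with the highest day 5 gap 8 were members, and of the 10 with the lowest 6, while members made up 10.1% of those tested; at control day 14 it was 8 and 7. The gap was chosen after the values were seen, and it is given with no test.

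The same ordering was seen outside the family. miR-574-3p had gaps of 1.99 and -0.33, and miR-574-5p of -0.63 and 0.49. The 7 tested non-members whose RefSeq sequence holds UGUGUG had day 5 gaps of -0.63 to 0 and control day 14 gaps of 0.06 to 1.12, whereas the other non-member with ACACAC, miR-362-3p, had gaps of -0.01 and -0.21. Printed above, the sequences of miR-466i-3p, miR-466q and miR-467f, which have ACACAC, belong to members with day 5 gaps of 1.31 to 1.85, and those of miR-466j and miR-669n, which have UGUGUG, to members with gaps of -0.41 and -0.25. The 4 brightest non-members with UGUGUG were miR-574-5p, miR-3082-5p, miR-1187 and let-7b-5p; of the 7, 0 were called higher and 1 lower in treated cells on each day, with medians of 0.33 and 0.29. The members of miR-467 called higher, and miR-669f-3p and miR-466b-3p, were mixed in this respect: miR-467a-3p and miR-467d-3p had day 5 gaps of 0.85 and 1.09, and miR-467a-5p, miR-467b-5p, miR-467e-5p, miR-669f-3p and miR-466b-3p of 0.00 to 0.14 in size. For miR-467c-5p, called at day 9 only, the gaps were -0.33 at day 5 and 0.45 at control day 14.

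**Figure D3:**
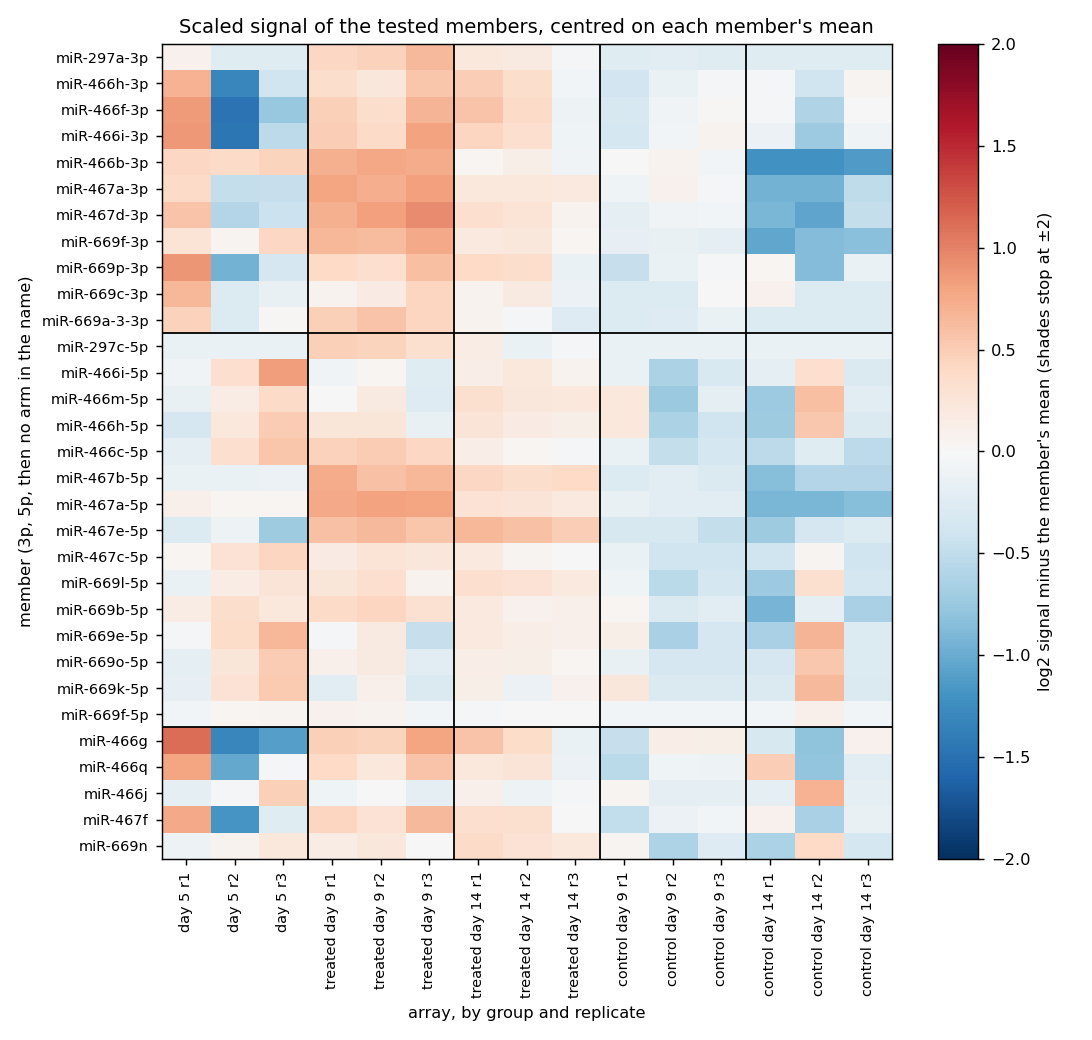
Scaled signal of the 31 tested members on the 15 arrays after subtracting each member's mean (log2; red above, blue below), with 3p members at the top, then 5p members, then members with no arm in the name. Treated day 9 columns are red for the miR-467 members and miR-669f-3p, and the day 5 columns turn from red to blue between replicates in miR-466h-3p, miR-466f-3p and miR-466i-3p.

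**Figure D4:**
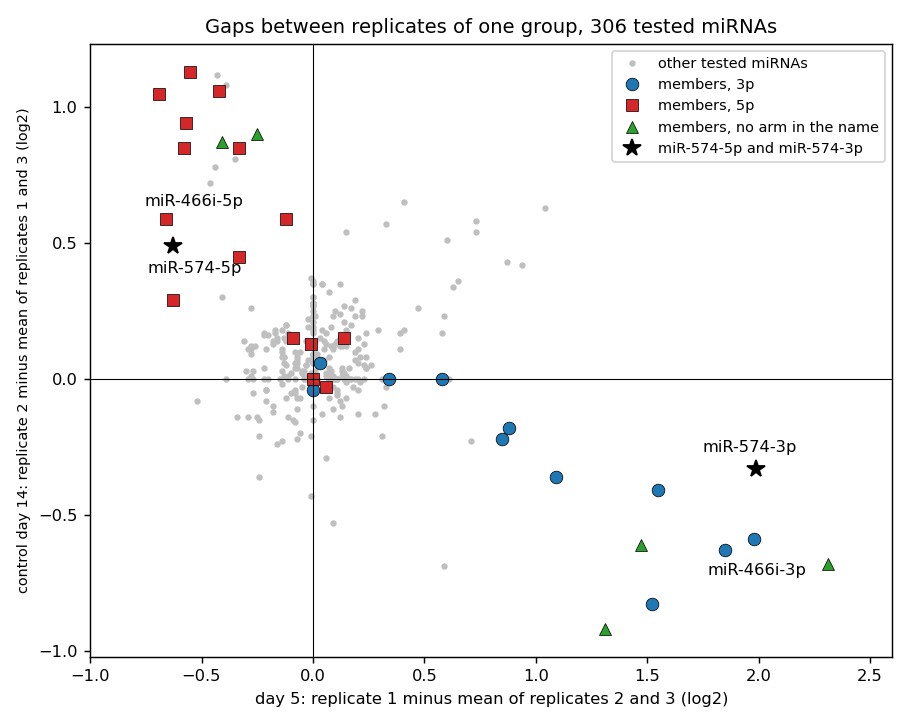
Gap between replicates at day 5 (horizontal, log2) against the gap at control day 14 (vertical, log2) for the 306 tested miRNAs, with members coloured by arm and miR-574 as stars. Most 3p members and miR-466g, miR-467f and miR-466q lie to the lower right and most 5p members to the upper left, while miR-669f-3p and miR-466b-3p lie near 0 on both axes, as do most other miRNAs.

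Counts that use day 5 depended on its replicate 1. Without it, 19 members were called in treated day 9 against day 5 (18 higher and 1 lower), among them miR-466f-3p at 1.63 ± 0.24, miR-466g at 1.77 ± 0.26 and miR-466i-3p at 1.54 ± 0.27 (adjusted p = 6e-05, 5.2e-05 and 2.1e-04 in limma), and 15 in control day 9 against day 5 (6 higher and 9 lower). Of all 306 miRNAs, 129 were then higher and 68 lower in the treated comparison and 77 and 101 in the control one. The day 5 arrays also enter the common estimate of the spread. In a fit without them 20 members were called higher and 0 lower in treated cells at day 9 (141 and 53 of all 306) and 12 higher and 0 lower at day 14 (132 and 47). The added calls at day 9 were miR-466f-3p, miR-466g, miR-466h-3p, miR-466i-3p, miR-467f, miR-669c-3p and miR-669p-3p, and miR-669l-5p was lost. These added members differed by 0.40 to 0.67, in a comparison that largely follows the slide. In the fit to all groups with slide as a fixed block, the differences were smaller and none was called. They were 0.05 for miR-466f-3p and miR-466g, 0.07 for miR-466h-3p and 0.21 for miR-466i-3p. For miR-467f, miR-669c-3p and miR-669p-3p they were 0.34, 0.16 and 0.14, with SE of 0.38 to 0.90 over the added members.

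Further probes of the same members were compared with no test. Of the 44 further probes of tested members, 9, of 7 members, were above background on all arrays, and all 9 were higher in treated cells on both days. Another 23 were above background on some arrays: 19 were higher and 1 lower in treated cells at day 9 (-0.06 to 1.03), and 17 higher and 4 lower at day 14 (-0.12 to 1.06). Differences below 0 were in further probes of miR-466m-5p at day 9 and of miR-466h-5p (-0.04 to -0.10) and miR-669e-5p at day 14. The last 12 were never above background. For miR-467a-3p the 4 probes differed by 0.79 to 0.90 at day 9 and by 0.90 to 1.07 at day 14. The last members named by the choice of groups were near the floor: miR-669o-5p and miR-669f-5p were above background on all 3 treated day 14 arrays and on 0 control day 9 arrays, with treated day 14 means of -3.84 and -4.23, and neither was called in treated against control on either day.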

How the data were processed

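The deposited scanner tables give spot intensity (Cy3) from Feature Extraction 11.0.1.1, per the file headers, not normalized between arrays; flags of 0 or 1 for outlier, above-background and saturated spots are columns of another kind (other), per the file headers. The deposited value table is also an intensity, linear and on the scale of the scanner signal (ratio 1.00 to 1.02), with column medians from -0.0248 to 0.697; treated day 14 replicates 1 and 2 repeat in it (86% of mouse probes equal within 0.1%) and were counted as 1. The submitters' processing notes name limma 3.20.9, with no use stated.

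Processed signal was averaged over a probe's non-outlier spots, scaled to each array's 75th percentile (353 mouse probes above background on every array), floored and put on the log2 scale; the brightest probe stood for a miRNA. All 5 groups were fitted in limma 3.58.1 (R 4.3.3; 10 residual and 3.03 prior degrees of freedom) over 306 miRNAs, with two-sided p adjusted by Benjamini-Hochberg; SE is limma's. The script was tested on simulated data. Figures used matplotlib 3.10.9 in Python 3.11.15.

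Named were the brightest tested member of each name and arm, the 6 brightest, the 4 largest called changes each way per comparison with groups that do not overlap, members above background in all arrays of a group and in 0 of another, and calls lost with slide as a block. Members, lists and rules were chosen with earlier results of these data known. The ACACAC list, the replicate gaps, the total gene signal and the fit without day 5 were added after seeing the data. Same-numbered replicates did not deviate together (correlations from -0.54 to 0.52), so the numbers do not pair the samples. Normexp used the median signal, since a mean signal was not used here. The number of arrays limits the precision.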

Additional observations from a re-analysis of the deposited data

Results flagged for a closer look

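The fitted treated-control difference changed from day 9 to day 14 in 2 members. For miR-466b-3p the day 14 effect was larger than the day 9 effect by 0.48 ± 0.09 (SE; adjusted p = 0.0014, limma interaction), and 2 of its 3 control day 14 arrays were at the floor. For miR-297c-5p the fitted value was -0.41, but all 6 control values were at the floor, so it is the fall between days in treated cells, and the control change was not measured. No group had the 4 samples needed to look for a single outlying array.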

How the results depend on the processing

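The counts of called members stayed within 1.5 times of the reported count with median scaling, the mean of probes, slide as a random block, the deposited value table and the total gene signal, in all 7 comparisons. The all-probe percentile gave 5 and 7 members in treated against control at days 9 and 14, and 1, higher, in control day 9 against day 5. It called 162, 114 and 156 of all 306 miRNAs in these comparisons. Quantile normalization gave 7 and 7, 1 for the difference between days and 3 for control day 9 against day 5. Of all 306 miRNAs it called 155 and 131, 104 and 173. Normexp gave 4, 2, 0 and, between days, 1 (treated day 9 against day 5), 2 (control), 5 (treated day 14 against 9) and 2 (control). In the same order it called 83, 70, 37, 106, 112, 133 and 96 of all 306. A floor 4 times higher, which put most members at the floor, gave 3 and 1, then 3, 2, 3 and 1. Of all 306 it called 95 and 93, then 122, 108, 133 and 96. The filter to 15 members above background on all arrays gave 5, 5 and 0, then 3, 3, 3 and 4. Of the 192 miRNAs it kept, 105, 115 and 58 were called, then 118, 122, 136 and 120. No filter gave 4 for the difference between days and 4 for control day 9 against day 5, beside 67 and 145 of all 1122. Slide as a fixed block gave 7 and 7 in treated against control and 0 for control day 9 against day 5, and within slide 1 treated day 14 against day 9 had 6. Of all 306 miRNAs the block called 75, 107 and 99, and the fit to slide 1 called 184. Without the day 5 arrays the difference between days had 4, beside 127 of all 306. Leaving out 1 array gave 13 to 14 (treated against control, day 9), 9 to 15 (day 14), 2 (difference between days), 9 to 19 and 5 to 15 (treated and control day 9 against day 5, the highest without day 5 replicate 1), 8 to 9 (treated day 14 against 9) and 5 to 6 (control). Of all 306 the calls in that order were 149 to 160, 146 to 167, 81 to 110, 163 to 197, 160 to 183, 189 to 197 and 150 to 162. The replicate block changed no count by over 1.5 times (13, 10, 2, 10, 7, 10 and 7). Of all 306 it called 169, 158, 97, 178, 177, 202 and 166.

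Of 61 differences of named members, 35 kept their call with the all-probe percentile, 16 with normexp, 13 with the higher floor and 41 with slide as a fixed block. The sign turned with the all-probe percentile for miR-467a-5p in control day 9 against day 5 (0.12), and for miR-669b-5p (-0.07) and miR-669l-5p (-0.05) in treated against control at day 9. With normexp it turned for miR-297a-3p (-0.02 in treated against control at day 14, -0.07 in treated day 9 against day 5), miR-297c-5p (-0.10) and miR-669a-3-3p (-0.11) in the latter, miR-466c-5p at day 14 (-0.04) and miR-466b-3p for the difference between days (-0.11). With the total gene signal that difference was 0.58 for miR-297c-5p. The cause was not tested. Members near background limit all of this: 16 of 31 tested members were not above it on every array.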
